A study of Homo sapiens with 4 samples.

Results

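The enzymes of glycolysis and of the pentose phosphate pathway were examined step by step and isoform by isoform in the LASCPC-01 line, with fluoxetine set against PBS. They are 32 genes chosen by symbol for their place in the pathways, with no threshold on a measured value. Of these, 31 had a row among the 16376 genes listed, and 30 had a mean of at least 0.1 FPKM (reads scaled by gene length and by the library's mapped reads), the minimum for the test. The level of FBP1, which makes fructose 6-phosphate in gluconeogenesis, is not analysed here, and SLC2A3 was below the minimum.

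LASCPC-01 is a line of neuroendocrine prostate cancer (NEPC) cells that carries NMYC and an activated AKT1, so both groups share these drivers, and the labels give its genotype as WT. Fluoxetine blocks serotonin reuptake and is used as an antidepressant. PBS is the buffer given to the control cells. There were 2 libraries of each group. The labels place all 4 at day 3, whereas the study's text states 48 h at 5 µM fluoxetine, and the fluoxetine titles show PP instead of the drug's name. No source says whether the 2 libraries of a group came from separate cultures, so p-values measure only the spread between these libraries, which may be technical. It is 1 cell line, and results hold for it alone.

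The mapped reads behind the FPKM were estimated at 32873603 and 34756748 in the PBS libraries and 34806710 and 34831389 in the fluoxetine libraries. On that estimate 1 read on a gene of 1 kb was worth 0.0287 to 0.0304 FPKM. The ratios between libraries came from the values, and the scale from the exon lengths of 12 genes in the GENCODE 29 annotation. The annotation behind the FPKM is not given in the sources used here, so the scale is uncertain. Of 9 neuroendocrine markers, 5 had a mean of at least 1 FPKM. They were NCAM1, INSM1, ENO2, which is also one of the enzymes, and the line's driver genes MYCN and AKT1. CHGA, CHGB and NEUROD1 were under 0.1, and SYP ranged from 0.142 to 0.629 FPKM. The list summed to 518.4 to 532.0 FPKM under PBS and 465.1 to 511.7 under fluoxetine, mostly from MYCN, a driver gene of the line, at 369.7 and 386.5 FPKM under PBS and 323.1 and 363.6 under fluoxetine. NCAM1, which is no driver, was lower in both treated libraries, at 52.03 and 51.15 FPKM against 44.27 and 47.11 FPKM. ENO2, given below, was lower in both as well. AKT1, the other driver, was higher in both treated libraries, at 70.5 and 68.8 against 72.1 and 74.4 FPKM, and INSM1 overlapped. Of 5 luminal prostate markers 3 were above 1 FPKM, led by KRT8 and KRT18, and their sum was 772.3 to 824.6 FPKM under PBS and 834.4 to 889.9 under fluoxetine. Markers of fibroblasts summed to 2.85 to 3.13 FPKM under PBS and 1.98 to 2.84 under fluoxetine, and markers of blood cells to 2.77 to 3.99 and 2.76 to 3.62. Nearly all of the fibroblast sum was COL1A1, at 2.534 and 2.746 FPKM under PBS and 1.825 and 2.663 under fluoxetine. Nearly all of the blood sum was CD68, at 2.765 and 3.966 FPKM against 3.589 and 2.745 FPKM. Both genes overlapped between the groups, and the other genes of these lists had means under 1 FPKM. None of these lists had a gene at 0 in all libraries among its rows, and the part of the marker differences in the results was not tested. In fluoxetine replicate 1 longer genes read lower than in the other libraries, with a correlation of -0.285 across genes between log2 gene length and the library's deviation, against 0.0561 and 0.189 for PBS and 0.0455 for fluoxetine replicate 2.

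Glycolysis splits glucose into pyruvate. Its preparatory phase takes up glucose, phosphorylates it and cleaves it into triose phosphates at the cost of ATP, and its payoff phase turns the triose phosphates into pyruvate with a gain of ATP and NADH. The pentose phosphate pathway branches off at glucose 6-phosphate and yields NADPH and ribose 5-phosphate for nucleotides. Many steps have several isoenzymes encoded by separate genes, some of them known targets of hypoxia-inducible factor, which binds short promoter sequences.

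Of the 30 enzymes tested, ALDOC and PFKFB4 fell under fluoxetine and none rose. ALDOC is the aldolase isoenzyme typical of brain, and PFKFB4 makes and breaks down fructose 2,6-bisphosphate, the activator of phosphofructokinase-1. The change was called with limma on log2(FPKM + 0.1) at a Benjamini-Hochberg adjusted p under 0.05 over 12663 genes, a rule that called 0.237% of all genes in either direction and 0.213% as lower. Fold changes on this scale understate the changes of low genes. ALDOC lies on chromosome 17 from 28573115 to 28577264 and PFKFB4 on chromosome 3 from 48517684 to 48562015, both on the minus strand (GENCODE 29 on GRCh38, the build in the submitters' processing notes). Their promoters, from RefSeq on GRCh38.p14 and written in the direction of the gene, are shown because these are the only members that passed the test. The capitals mark ACGTG and GCGTG on either strand, the core letters to which hypoxia-inducible factor binds, and CACGTG, the E-box, where ACGTG is read on both strands.
ALDOC: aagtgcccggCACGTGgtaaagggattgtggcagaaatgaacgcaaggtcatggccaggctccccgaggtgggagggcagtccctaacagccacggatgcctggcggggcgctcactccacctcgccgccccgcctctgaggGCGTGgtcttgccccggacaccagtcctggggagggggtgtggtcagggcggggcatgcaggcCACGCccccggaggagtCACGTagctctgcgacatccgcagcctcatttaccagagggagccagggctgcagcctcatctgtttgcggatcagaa
PFKFB4: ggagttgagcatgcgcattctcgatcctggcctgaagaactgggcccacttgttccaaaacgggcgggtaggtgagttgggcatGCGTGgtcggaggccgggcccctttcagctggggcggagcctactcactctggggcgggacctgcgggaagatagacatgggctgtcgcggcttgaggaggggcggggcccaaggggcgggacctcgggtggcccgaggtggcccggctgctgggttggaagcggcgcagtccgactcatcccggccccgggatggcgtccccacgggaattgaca

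The ALDOC window is chr17:28576846-28577145 and the PFKFB4 window chr3:48556754-48557053, each with 250 bases before the start of transcription and 50 after it. ALDOC held 5 matches, of which a pair was the overlapping reading of 1 CACGTG, and PFKFB4 held 1. RefSeq promoters were found for 30 of the 32 enzymes, FBP1 among them, with 53 windows in all since some genes have several starts. Of these, 32 (60.4%) held ACGTG or GCGTG on either strand, against 48.4% of all 35116 promoters and 60.4% of the 15010 promoters of the genes tested, so the enzymes' share equalled that of the genes tested. ACGTG alone was in 35.8% of the enzymes' promoters and in 25.2% of those of the genes tested. At least 5 matches were found in 3.77% of the enzymes' promoters, which were ALDOC and 1 of the HK2 starts with 6, and in 2.72% of those of the genes tested. PGK1 held 4 matches. PGD, another HK2 start, and 1 start each of PGM1 and PFKP held 3. None of these genes was called. A match is a description of the letters and not evidence of binding.

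ALDOC stood at 14.3 and 13.7 FPKM with PBS and at 5.85 and 5.83 FPKM with fluoxetine. All 4 values lay close to their group's mean, and the groups were far apart. Its mean fell by 58.3%, from 14.0 ± 0.451 to 5.83 ± 0.0151 FPKM (SD, n = 2), and its log2 fold change was -1.25 ± 0.0889 (SE), with a 95% interval of -1.44 to -1.05 and an adjusted p of 5.41e-05 by limma. These levels rest on 784 and 792 reads under PBS and 339 and 338 under fluoxetine. The adjusted p of ALDOC was 0.0549 without PBS replicate 1, 0.0931 without the minimum FPKM and 0.0901 without limma's variance trend, in a range from 6.43e-08 over the alternatives that keep all libraries. An antisense gene covers 10.1% of the exon bases of ALDOC.

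PFKFB4 was at 15.9 and 15.0 FPKM under PBS and at 9.54 and 10.4 FPKM under fluoxetine. Its mean fell by 35.6%, from 15.5 ± 0.658 to 9.97 ± 0.615 FPKM (SD, n = 2). The gap between the groups was several times the gap between replicates, and the log2 fold change was -0.63 ± 0.0875 (SE), with a 95% interval of -0.82 to -0.44 and a limma adjusted p of 0.0106. It had 2989 and 2976 reads under PBS and 1892 and 2066 under fluoxetine. Without any 1 of the 4 libraries its log2 fold change stayed between -0.69 and -0.57, but the adjusted p was above 0.05, up to 0.363 without PBS replicate 2. It was 0.420 without the minimum FPKM and 0.324 without limma's variance trend, in a range from 3.26e-06 over the alternatives that keep all libraries.

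Over the 30 enzymes the median log2 fold change was -0.08, against -0.02 for all genes tested, and 23 had a negative value. In 14 of the 30 both fluoxetine libraries lay below both PBS libraries, which was so for 24.8% of all genes. ADPGK was the only enzyme with both fluoxetine libraries above both PBS libraries, against 16.7% of all genes, and 15 overlapped. An unadjusted limma p under 0.05 was reached by 8 enzymes with a lower value and by none with a higher value, against 4.79% and 3.73% of all genes. The 9 enzymes with a mean of at least 100 FPKM had a median of -0.01, and the 21 under 100 FPKM a median of -0.10. Fluoxetine replicate 1 was the lowest of the 4 libraries for 16 of the 30 enzymes and the highest for 8. PBS replicate 1 was the highest for 14 and the lowest for none. These counts were not made over all genes. Without fluoxetine replicate 1 the enzymes' median was -0.08, against -0.02 for all genes.

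**Figure D1:**
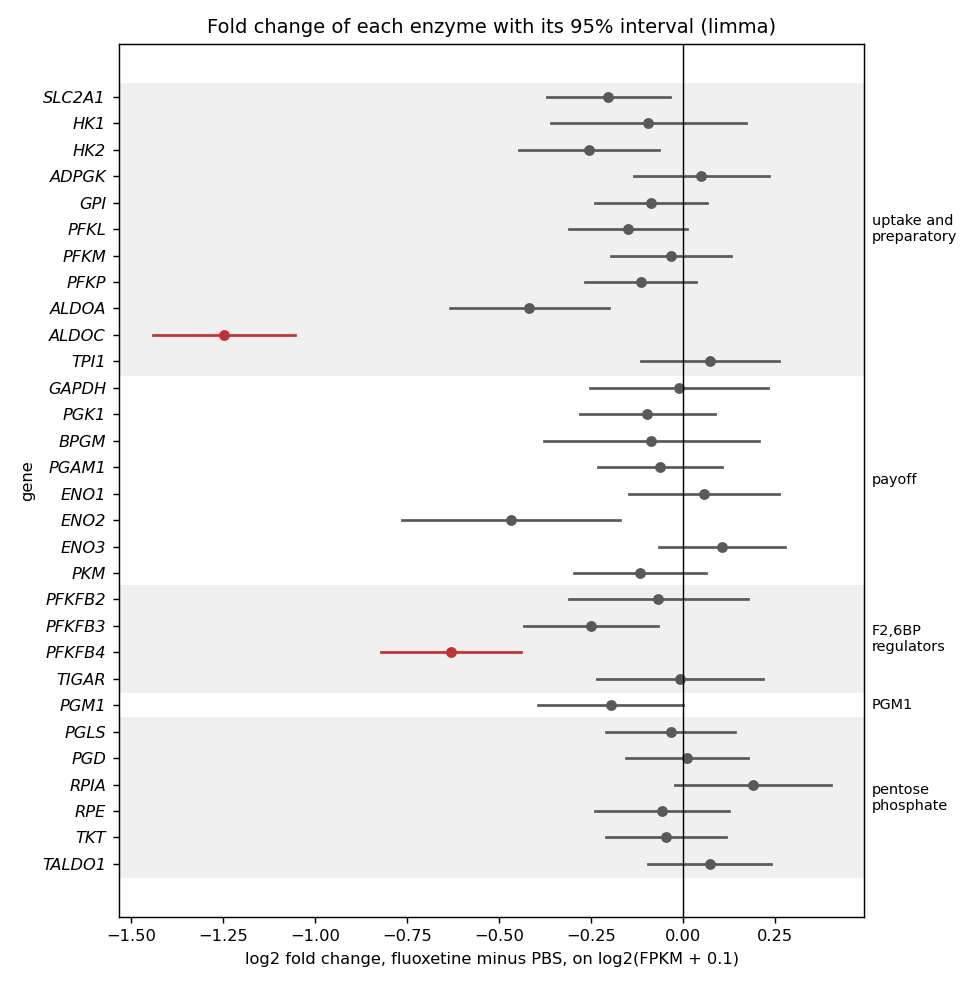
Log2 fold change (fluoxetine minus PBS, on log2(FPKM + 0.1)) of the 30 enzymes tested, grouped by role, with bars for the 95% limma interval. ALDOC at -1.25 and PFKFB4 at -0.63 stand farthest to the left and are the only called values, and most of the others lie near 0.

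Glucose enters through GLUT1, encoded by SLC2A1, and through the neuronal transporter GLUT3, encoded by SLC2A3. SLC2A1 read 52.6 and 48.6 FPKM under PBS and 42.2 and 45.7 FPKM under fluoxetine. Both treated libraries were below both controls, with a log2 fold change of -0.20 ± 0.0769 (SE) that did not pass the test (limma adjusted p = 0.532). SLC2A3 was nearly silent, with 6 and 9 reads under PBS and 3 and 4 under fluoxetine, so its level was at most 0.0677 FPKM and no change was tested. SLC2A1 held 99.9% of the summed FPKM of SLC2A1 and SLC2A3 in both groups. The other glucose transporters, which belong to a further list below, are not in this sum.

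Hexokinases trap glucose as glucose 6-phosphate. HK2, the isoenzyme raised in many tumours, was at 40.9 and 35.7 FPKM under PBS and at 30.3 and 33.8 FPKM under fluoxetine, and HK1, the housekeeping form, at 4.13 and 4.32 against 3.63 and 4.30 FPKM. The HK2 groups did not overlap but lay close, since the lower control was 35.7 and the higher treated library 33.8. Its log2 fold change was -0.26 ± 0.0874 (SE, limma adjusted p = 0.496), and that of HK1, whose groups overlapped, was -0.10 ± 0.122 (adjusted p = 0.828). HK2 made up 90.0% ± 1.14 of the HK1 and HK2 FPKM under PBS and 89.0% ± 0.415 under fluoxetine (SD, n = 2). ADPGK, which phosphorylates glucose with ADP, read 11.1 and 10.7 FPKM under PBS and 11.3 and 11.3 FPKM under fluoxetine, a log2 difference of 0.05 ± 0.0844 (SE, limma adjusted p = 0.877).

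GPI converts glucose 6-phosphate to fructose 6-phosphate, and its 68.8 and 66.3 FPKM under PBS compared with 63.2 and 63.8 FPKM under fluoxetine. The groups did not overlap, yet the log2 fold change of -0.09 ± 0.0697 (SE) did not pass the test (limma adjusted p = 0.707), and with the length trend of each library removed it was 0.03.

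Phosphofructokinase-1, the committing step of glycolysis, has a platelet, a liver and a muscle form. PFKP, the platelet form, led with 97.5 and 96.4 FPKM under PBS and 89.1 and 89.9 FPKM under fluoxetine. PFKL, the liver form, gave 43.0 and 41.5 FPKM against 36.7 and 39.5 FPKM, and PFKM, the muscle form, 24.3 and 23.6 against 22.9 and 23.9 FPKM. PFKP and PFKL thus lay lower in both treated libraries, while PFKM overlapped. Their log2 fold changes of -0.12, -0.15 and -0.03 did not pass the test (limma adjusted p = 0.624, 0.592 and 0.914). The makeup of the step hardly moved, with PFKP at 59.4% of the summed FPKM under PBS and 59.3% under fluoxetine.

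Aldolase cleaves fructose 1,6-bisphosphate, and here ALDOC was measured beside ALDOA, the form of muscle and most tissues. ALDOA read 8.46 and 9.67 FPKM under PBS and 6.67 and 6.82 FPKM under fluoxetine. The treated libraries were both lower, and the log2 fold change of -0.42 ± 0.0994 (SE) did not pass the test (limma adjusted p = 0.222). The level of ALDOA is uncertain, since 42.3% of its exon bases are shared on the same strand with another gene in GENCODE 29, and a RefSeq gene that spans ALDOA, LOC112694756, had its own row at 0.170 to 0.310 FPKM. How reads that fall in both genes were counted is not given in the sources used here, and if they were left out the FPKM of ALDOA are too low. TPI1, which interconverts the triose phosphates, overlapped between the groups, with 476.9 and 441.9 FPKM under PBS and 504.6 and 462.3 FPKM under fluoxetine (log2 fold change 0.07, limma adjusted p = 0.807).

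**Figure D2:**
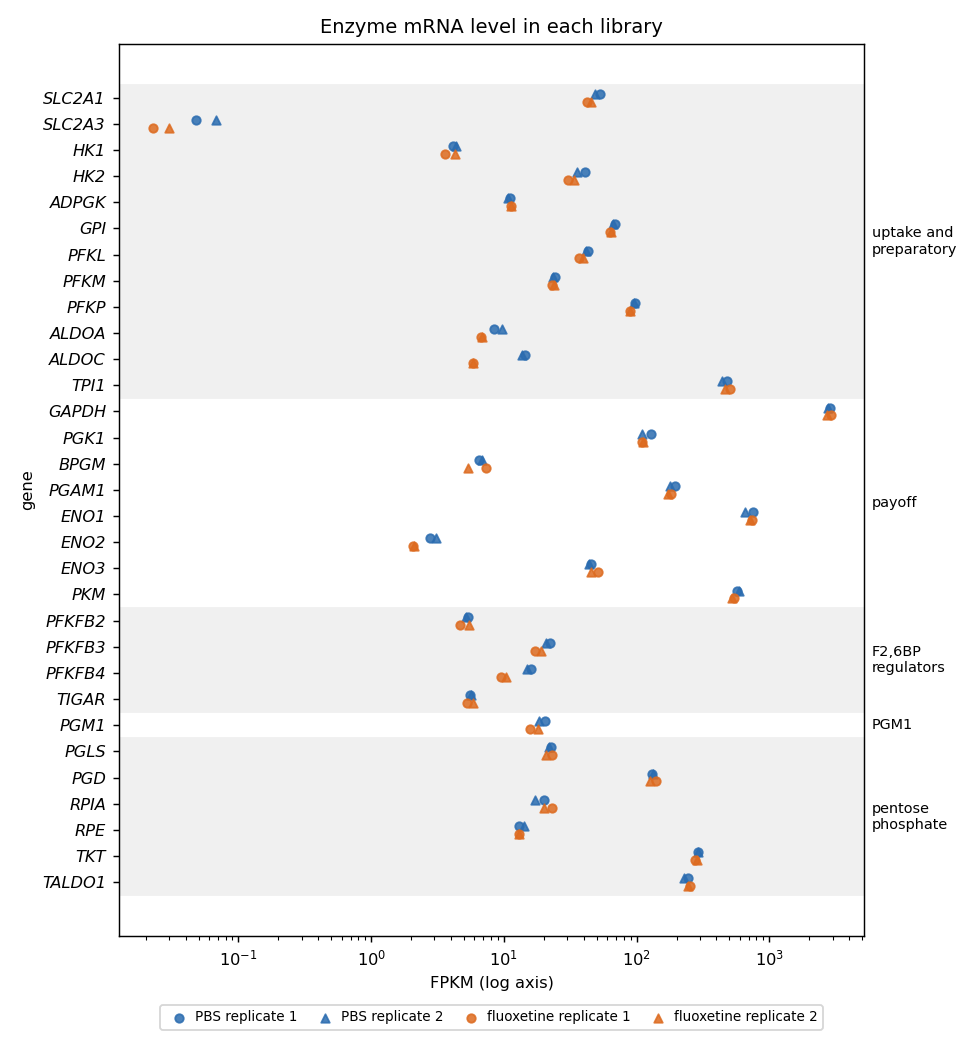
FPKM of each of the 31 enzymes with a row in the 4 libraries, on a log axis, with 1 point for each library, coloured by group and shaped by replicate. The enzymes span from under 0.1 FPKM for SLC2A3 to over 2700 FPKM for GAPDH, and the groups are visibly apart for ALDOC and PFKFB4.

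The level of fructose 2,6-bisphosphate is set by the PFKFB enzymes and by TIGAR, a phosphatase that lowers it. PFKFB3, the inducible form with the strongest kinase activity, had 22.3 and 20.8 FPKM under PBS and 17.2 and 19.0 FPKM under fluoxetine. PFKFB2, the heart form, overlapped, with 5.35 and 5.21 FPKM against 4.68 and 5.42 FPKM. The log2 fold change was -0.25 ± 0.0835 (SE) for PFKFB3 and -0.07 ± 0.111 for PFKFB2, and neither passed the test (limma adjusted p = 0.478 and 0.875). TIGAR read 5.56 and 5.63 FPKM under PBS and 5.32 and 5.80 FPKM under fluoxetine, with overlapping groups and a log2 fold change of -0.01 (limma adjusted p = 0.987), and 42.6% of its exon bases are shared with another gene in GENCODE 29.

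The payoff phase held the most abundant enzymes. None of its 8 genes passed the test, 6 overlapped between the groups, and their median log2 fold change was -0.07. GAPDH, which oxidises glyceraldehyde 3-phosphate, was at 2875 and 2782 FPKM under PBS and 2893 and 2720 FPKM under fluoxetine. Its log2 fold change was -0.01, with a 95% interval of -0.25 to 0.23, so a change of more than about 0.25 either way lies outside the interval. GAPDH alone gave 46.4% to 47.2% of the FPKM of all the enzymes in a library.

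PGK1, the first enzyme of glycolysis to make ATP, had 128.7 and 109.5 FPKM under PBS and 109.8 and 112.1 FPKM under fluoxetine. PGAM1, the phosphoglycerate mutase, had 193.1 and 177.2 FPKM against 182.3 and 172.0 FPKM. Both pairs of groups overlapped, with log2 fold changes of -0.10 and -0.06 (limma adjusted p = 0.728 and 0.819). BPGM, which makes the 2,3-bisphosphoglycerate of red blood cells, read 6.46 and 6.86 FPKM under PBS and 7.33 and 5.35 FPKM under fluoxetine, and the treated libraries were the highest and the lowest of the 4.

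Enolase is encoded by ENO1 in most cells, ENO2 in neurons and neuroendocrine cells, and ENO3 in muscle. ENO1 dominated with 748.4 and 654.9 FPKM under PBS and 740.1 and 716.1 FPKM under fluoxetine. ENO2, also one of the neuroendocrine markers, was low at 2.76 and 3.10 FPKM under PBS and 2.07 and 2.10 FPKM under fluoxetine. ENO3 read 45.6 and 43.7 FPKM against 50.9 and 45.3 FPKM. Only ENO2 had groups that did not overlap, with 208 and 247 reads against 165 and 168, and its log2 fold change of -0.47 ± 0.136 (SE) did not pass the test (limma adjusted p = 0.373). Those of ENO1 and ENO3 were 0.06 and 0.10 (adjusted p = 0.875 and 0.691). In this neuroendocrine line ENO2 was only 0.394% of the enolase FPKM under PBS and 0.268% under fluoxetine.

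PKM, the pyruvate kinase that closes glycolysis, had 566.7 and 587.9 FPKM under PBS and 542.9 and 521.5 FPKM under fluoxetine. The groups did not overlap, and the log2 fold change was -0.12 ± 0.0828 (SE, limma adjusted p = 0.671). The table gives 1 value for the gene, so the splice forms PKM1 and PKM2 are not told apart.

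The pentose phosphate pathway showed no called change, and its 6 genes had a median log2 fold change of -0.01. PGLS, which hydrolyses the lactone of the oxidative branch, read 22.6 and 21.9 FPKM under PBS and 22.9 and 20.7 FPKM under fluoxetine. PGD, which yields NADPH and ribulose 5-phosphate, read 130.6 and 133.5 FPKM against 140.0 and 126.5 FPKM. The groups overlapped for both, and for PGD the 95% interval of the log2 fold change was -0.16 to 0.18 (limma adjusted p = 0.981).

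In the branch without oxidation, RPIA and RPE convert ribulose 5-phosphate, and TKT and TALDO1 exchange carbon units with glycolysis. RPIA, the ribose 5-phosphate isomerase, had the highest log2 fold change of all the enzymes at 0.19 ± 0.0971 (SE), with 20.2 and 17.3 FPKM under PBS and 22.9 and 19.9 FPKM under fluoxetine. The groups overlapped and the test was not passed (limma adjusted p = 0.603). TKT stood at 289.9 and 288.9 FPKM under PBS and 277.3 and 283.6 FPKM under fluoxetine, lower in both treated libraries by a log2 value of 0.05 (95% interval -0.21 to 0.12, adjusted p = 0.874). TALDO1 overlapped at 242.5 and 227.1 FPKM against 250.9 and 242.5 FPKM. RPE read 13.1 and 14.1 FPKM under PBS and 13.1 and 13.1 FPKM under fluoxetine, a difference carried by PBS replicate 2, and 23.8% of its exon bases overlap a gene on the other strand.

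PGM1, which links glycogen to glucose 6-phosphate, read 20.3 and 18.4 FPKM under PBS and 15.8 and 18.0 FPKM under fluoxetine. The treated libraries were both lower, and the log2 fold change of -0.20 ± 0.0901 (SE) did not pass the test (limma adjusted p = 0.579).

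By phase, both fluoxetine libraries lay below both PBS libraries for 7 of 11 genes of uptake and the preparatory phase, 2 of 4 regulators of fructose 2,6-bisphosphate, 2 of 8 genes of the payoff phase and 2 of 6 of the pentose phosphate pathway, against 24.8% of all genes, so the share in the payoff phase (25%) was that of all genes and the share in the pentose phosphate pathway (33.3%) was near it. The median log2 fold changes were -0.12, -0.16, -0.07 and -0.01 in the same order, and the differences between phases were not tested. The phases also differed in gene length, with medians of 4035, 6954, 2350 and 2110 bases. With the length trend of each library removed the medians were -0.10, -0.08, -0.11 and -0.02, so the order of the phases was not kept. Across the 30 enzymes the correlation between log2 length and log2 fold change was -0.02 (Pearson) and -0.33 (Spearman), which describes 30 genes that share the 4 libraries.

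Since FPKM are per length, the isoforms of a step can be added. The aldolase step had 22.8 and 23.3 FPKM in all under PBS and 12.5 and 12.7 FPKM under fluoxetine, a change of the mean by -45.45%, which shares the uncertainty of ALDOA. The PFKFB step had 43.7 and 41.0 FPKM against 31.5 and 34.9 FPKM, a change of the mean by -21.7%. Both steps were lower in both treated libraries, and so were hexokinase (a change of -15.3%), SLC2A1 with SLC2A3 (-13.2%) and phosphofructokinase-1 (-7.45%). Enolase overlapped, with 796.8 and 701.7 FPKM under PBS and 793.1 and 763.5 FPKM under fluoxetine, a change of the mean by 3.87%. With 2 libraries against 2 the exact permutation test cannot go below p = 0.333, which these 5 lower steps reached, so none could pass the threshold. All 31 enzymes with a row together took 1.70% and 1.67% of the FPKM of the PBS libraries and 1.62% and 1.60% of the fluoxetine libraries.

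Isoforms of a step did not all differ by the same amount. The log2 ratio of the ALDOC to the ALDOA FPKM was 0.63 ± 0.182 under PBS and -0.21 ± 0.0273 under fluoxetine (SD, n = 2), a difference of -0.84. ALDOC was 60.7% ± 3.01 of the aldolase FPKM under PBS and 46.4% ± 0.471 under fluoxetine, and since the ALDOA level may be too low, neither the ratio nor the share shows which aldolase is the more abundant. The log2 ratio of PFKFB4 to PFKFB3 went from -0.48 ± 0.0119 to -0.86 ± 0.0127, a difference of -0.38, and the share of PFKFB4 in the step from 36.6% to 30.1%. For these 2 pairs, and for ENO2 against ENO1 at -0.54, PFKFB3 against PFKFB2 at -0.18 and PFKM against PFKL at 0.12, the groups did not overlap, and the two-sided exact permutation p was 0.333, the smallest this design allows. The ratio of SLC2A3 to SLC2A1 differed by -0.92 without overlap, on the few reads given above. HK2 against HK1, PFKP against PFKL and ENO3 against ENO1 overlapped, with differences of -0.16, 0.04 and 0.05.

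**Figure D3:**
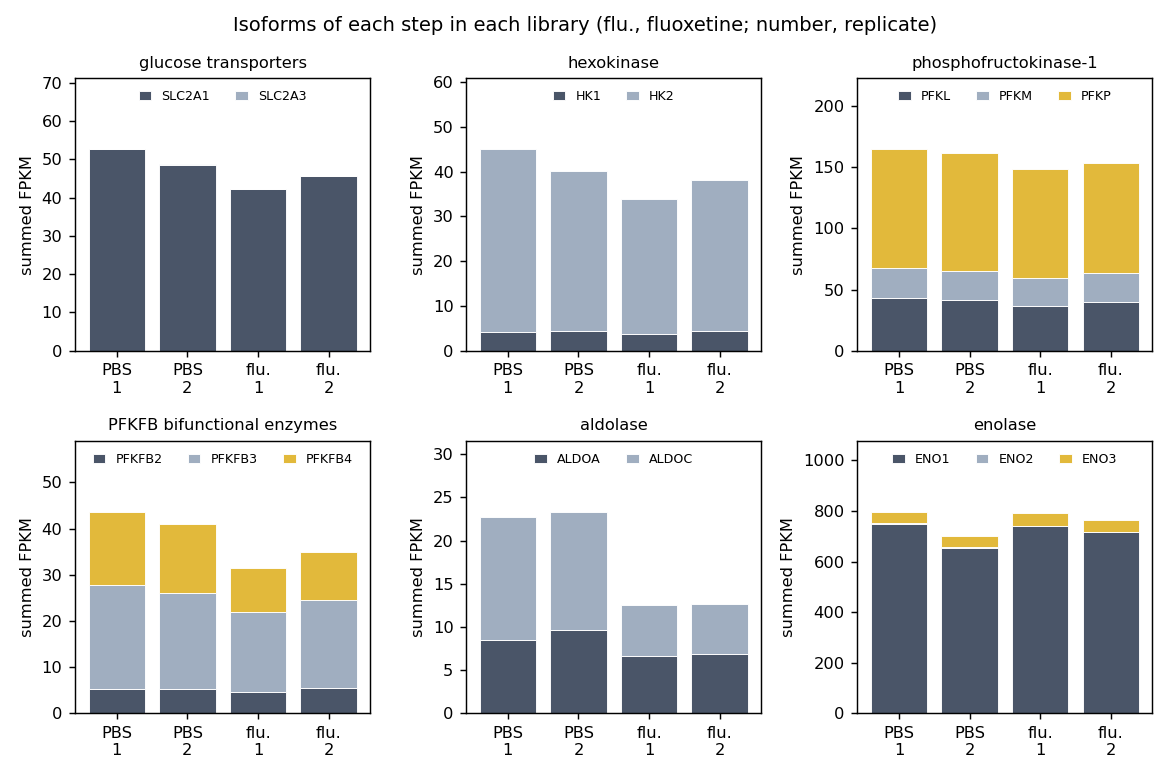
Summed FPKM of each enzyme step in the 4 libraries, stacked by isoform, in a panel for each step with an axis from 0. The ALDOC layer of the aldolase panel shrinks from 60.7% of the stack under PBS to 46.4% under fluoxetine, shares that are too high if ALDOA is undercounted, while the makeup of phosphofructokinase-1 and enolase looks alike in all 4 libraries, and SLC2A3 and ENO2 are too low to be seen.

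A further list of 49 genes of these pathways, among them tissue-specific isoenzymes, lactate dehydrogenases, pyruvate dehydrogenase kinases and other glucose transporters, had 45 rows and 34 genes tested. By limma none was called, 2 had an unadjusted p under 0.05 with a lower value (4.79% of all genes) and none with a higher value (3.73% of all genes), and the median log2 fold change was 0.03. The groups did not overlap for 9, of which fluoxetine was lower for 5 and higher for 4, where all genes had shares of 24.8% and 16.7%. PDK1, which inhibits pyruvate dehydrogenase, had 12.9 and 11.4 FPKM under PBS and 9.50 and 8.56 FPKM under fluoxetine, a log2 fold change of -0.42 ± 0.0974 (SE, limma adjusted p = 0.187). LDHA, which reduces pyruvate to lactate, had 482.2 and 461.7 FPKM against 420.7 and 401.6 FPKM, a log2 fold change of -0.20 ± 0.0809 (adjusted p = 0.541). LDHB, the other main lactate dehydrogenase subunit, overlapped at 488.8 and 431.8 FPKM under PBS and 531.4 and 486.6 FPKM under fluoxetine, and so did H6PD, which runs the oxidative branch in the endoplasmic reticulum, at 1.45 and 1.25 FPKM against 1.21 and 1.30 FPKM.

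For reference, 25 genes outside glycolysis that hypoxia is known to induce were measured in the same libraries. Of 23 tested, 8 were called lower by limma, against 0.213% of all genes, and none higher. Their median log2 fold change was -0.48, and 21 had both fluoxetine libraries below both PBS libraries, against 24.8% of all genes. The called genes were BHLHE40 and CA9, a transcription factor and a carbonic anhydrase, with SLC16A3, BNIP3, NDRG1, P4HA1, HILPDA and STC1. CA9 had a log2 fold change of -2.04 at low levels, with 1.30 and 1.92 FPKM under PBS and 0.242 and 0.390 FPKM under fluoxetine. It had 66 and 103 reads against 13 and 21. SLC16A3, the lactate exporter MCT4, was at -1.82, with 2.526 and 2.425 FPKM against 0.490 and 0.801 FPKM. Over the alternatives that keep all libraries CA9 ranged from -2.33 to -0.98 and SLC16A3 from -1.97 to -1.09. NDRG1, a stress-induced gene, was at -1.36 with 5.35 and 5.81 FPKM under PBS and 1.66 and 2.68 FPKM under fluoxetine. The enzymes' median of -0.08 was smaller in size than that of these genes, and ALDOC at -1.25 and PFKFB4 at -0.63 were the enzymes beyond -0.48. The part of these genes' change in that of the enzymes was not tested. In RNA from whole cultures, fewer cells of a kind and less RNA per cell cannot be told apart.

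**Figure D4:**
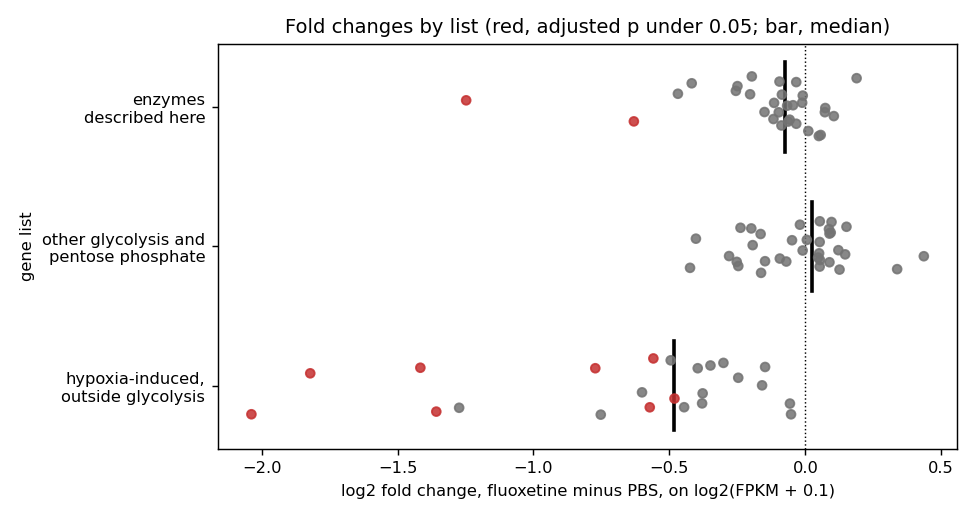
Log2 fold change (fluoxetine minus PBS) of each tested gene in 3 lists, the 30 enzymes, the 34 other genes of the pathways and the 23 hypoxia-induced genes, with a bar at each median and called genes in red. The medians are -0.08, 0.03 and -0.48, and the called genes are 2, 0 and 8.

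Reads shared with near-identical copies limit some levels. GENCODE 29 names 62 pseudogenes after GAPDH, 13 after PGAM1, 6 after RPE and 5 after PKM, and how the counting treated reads that match several places is not given in the sources used here.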

How the data were processed

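RNA of LASCPC-01 cells was sequenced as paired reads of 150 bases, with 2 libraries under PBS and 2 under fluoxetine. The authors deposited 1 table of FPKM, which are reads scaled by gene length and by the library's mapped reads, for 16376 genes. The submitters' processing notes name fastp, HISAT2, HTSeq and GRCh38; the annotation and the strand setting of the counting are not given in the sources used here. Samples were grouped by their treatment label, each column matched the label of 1 sample, and 0 columns of per-sample values were left unused.

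Differences were tested with limma 3.58.1 under R 4.3.3, by lmFit and eBayes with a variance trend, two-sided, on log2(FPKM + 0.1) without a covariate, over the 12663 genes with a mean of at least 0.1 FPKM, with Benjamini-Hochberg adjustment over all of them. A change was called at an adjusted p under 0.05. Step totals and isoform ratios were compared by two-sided exact permutation tests over libraries. A count test was no main test, since the deposited values are not counts. Whole reads were recovered from the FPKM for 16079 of the 16080 genes above 0 (99.99%) by searching gene lengths from 60 to 59999 bases, and served for limma voom as an alternative. The smallest length that gave whole reads was kept, so a gene's reads and length can be too low by a common factor. Of the solved genes, 924 had a length within 1% of the GENCODE 29 exon length. Read numbers cover counting error only. Other steps ran in Python 3.11.15 with matplotlib 3.10.9, scipy 1.17.1, pandas 2.3.3 and numpy 2.4.6. Only the read recovery and the main limma fit were tested on simulated data.

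The members, the lists and the tests were chosen with earlier results of these data known. All 32 enzymes were named, and from the other lists the called genes and PDK1, LDHA, LDHB, H6PD and NDRG1. Gene locations came from GENCODE 29 and promoters from RefSeq. Replicates of a group were not 1 library deposited again, with a chi-square per degree of freedom of 9.26 for PBS and 11.2 for fluoxetine. Alternatives were a pseudocount of 1 or 0.01, a minimum of 1 FPKM or none, TPM, quantile normalization, median centring, removal of the gene length trend (lowess, span 0.3), a replicate block, robust moderation, eBayes without the variance trend, voom, and leaving out each library. The result for 1 marker gene is left out here.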

Additional observations from a re-analysis of the deposited data

How the results depend on the processing

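Over all genes 30 were called, which became 0 without a filter on low values (1069 at an unadjusted p under 0.05) and 0 without limma's variance trend (933), 16 after quantile normalization, 56 with voom on recovered reads, and 2 to 12 when 1 library was left out (2 without PBS replicate 1, 3 without PBS replicate 2, 9 without fluoxetine replicate 1 and 12 without fluoxetine replicate 2). Of the enzymes, 2 were called, against 0 with no filter (7 at an unadjusted p under 0.05), 0 without the variance trend (4) and 0 to 1 without 1 library, where PFKFB4 was lost each time and ALDOC without PBS replicate 1. The other pathway genes had 0 calls and 1 with voom, and the hypoxia-induced genes 8, against 0 with no filter, 0 without the trend and 0 to 5 without 1 library. The enzymes' median log2 fold change of -0.0767 was -0.1252 in TPM and -0.0504 after median centring, which shift the values of all genes. The cause of the other changes was not tested.

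The replicate numbers come from the titles, and no source says that they pair samples. Deviations of same-numbered libraries from the group means had a correlation of 0.0351 over all genes tested and 0.101 over the 5576 genes with a mean of at least 10 FPKM. With the replicate number as a block limma called 64 genes in all, 1 of the other pathway genes and 13 hypoxia-induced genes, and both enzymes kept their call.

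Of the 30 enzymes, 13 changed direction under at least 1 alternative, and the largest absolute log2 fold change among them was 0.0979. With the gene length trend removed, GPI was at 0.026, PFKM 0.0047, PFKFB2 0.0517, TIGAR 0.0761, PGD -0.0202 and TALDO1 -0.0050. After quantile normalization TPI1 was at -0.0299, ENO1 -0.0266, TIGAR 0.0435, PGD -0.0548, TALDO1 -0.0076 and the enolase total -0.0216. Median centring gave 0.0144 for GAPDH and 0.0167 for TIGAR, and TPM gave -0.037 for PGD. Without 1 library the ranges were -0.2154 to 0.025 for HK1, -0.171 to 0.0368 for PFKFB2, -0.0562 to 0.0325 for GAPDH, -0.2139 to 0.0181 for PGK1, -0.0399 to 0.1526 for ENO1, -0.3096 to 0.1369 for BPGM, -0.0716 to 0.0523 for TIGAR, -0.0622 to 0.0839 for PGD, -0.1054 to 0.0384 for PGLS, -0.0339 to 0.1494 for the enolase total, -0.0101 to 0.0811 for PFKP against PFKL and -0.0163 to 0.1133 for ENO3 against ENO1. Depth limits SLC2A3, with at most 9 reads in a library.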
